A study of Mus musculus with 2 samples.

Results

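The hormone cells of the fetal mouse intestine were the subject: epithelial cells that pack peptide hormones into secretory granules, together with a few insulin-rich cells of islet kind that were caught in the same preparation. A cell was taken as a member if it had at least 500 genes and if at least 2% of its unique molecular identifiers (UMIs, each standing for 1 captured transcript) came from the 13 genes Sct, Ghrl, Pyy, Nts, Cck, Gcg, Sst, Gip, Tac1, Chga, Chgb, Ins1 and Ins2 summed. The rule found 83 members among 2314 cells with at least 500 genes, of which 37 were in one library and 46 in the other. Members with at least 1% of UMIs from Ins1 and Ins2 are kept apart as islet cells (1 and 4 cells), and the other 78 (36 and 42) are called gut hormone cells. The latter name rests on the insulin cut alone. Since these 13 genes chose the cells, their levels are a description.

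Both libraries came from mice at stage E18.5 on the C57BL/6 background and were made by 3′ droplet capture (10x Chromium v2) after papain dissociation. Both genotypes were Mlkl -/-, that is, without the pore-forming protein that carries out necroptosis, and this library is called Mlkl-null where nothing else was altered. The other, called Casp8-mutant, was Casp8 C362A/C362A Mlkl -/-, with a substitution that removes the catalytic cysteine of the protease caspase-8 in every cell. There was 1 library per genotype, how many embryos it was made from is not stated, and the tissue is described as the whole intestine in the protocol but as small intestine in the source label. No value therefore has a replicate check, no test was made, and all intervals are at 95% and hold nothing but counting error.

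Enteroendocrine cells arise from the crypt progenitors that also give enterocytes and goblet cells, under the transcription factor Neurog3 and, after it, Neurod1, Pax6, Isl1 and others. Each cell makes prohormones that are cut by the convertases Pcsk1 and Pcsk2, trimmed by carboxypeptidase E, amidated by Pam and stored with granins such as chromogranin A and B. Classical naming gives each kind of cell 1 hormone (S cells secretin, X cells ghrelin, I cells cholecystokinin, K cells Gip, L cells glucagon-like peptides and Pyy, N cells neurotensin, D cells somatostatin, enterochromaffin cells serotonin), while many cells hold several. Caspase-8 starts apoptosis from death receptors and also restrains the kinase Ripk3 and the necroptosis it drives through Mlkl.

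The libraries held 6290008 UMIs over 1478 barcodes (Mlkl-null) and 2804929 UMIs over 1014 barcodes (Casp8-mutant). Gut hormone cells had a median of 3835 UMIs (range 1251 to 9280) in the Mlkl-null library and 1717 UMIs (range 985 to 6097) in the Casp8-mutant library, with medians of 1734 and 949 genes, so genes with few transcripts were less often seen in the latter. The libraries also differed in sex-linked transcripts: Xist had 2 UMIs in the Mlkl-null library and 8478 in the Casp8-mutant library, and Ddx3y had 277 and 2, so sex and genotype cannot be told apart. Barcodes shared by both libraries numbered 2, and 1 Mlkl-null member carried such a barcode. Scrublet called 4 and 2 doublets, none of them a member. For comparison, epithelial cells that were not members (273 and 266), stromal and myeloid cells (86 and 107) and red-cell barcodes with at least 50% of UMIs from erythroid genes (52 and 113) were summed in the same way. These comparison sets are ranges cut from summed markers, not cell types.

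Hormone cells made up 2.57% of Mlkl-null cells (37 of 1439, interval 1.82 to 3.53%) and 5.26% of Casp8-mutant cells (46 of 875, interval 3.87 to 6.95%), a ratio of 2.04 (1.30 to 3.24). Set against hormone and epithelial comparison cells alone, a denominator chosen after seeing the data, they were 11.9% (37 of 310, 8.54 to 16.1%) and 14.7% (46 of 312, 11.0 to 19.2%). That ratio was 1.24, with an interval of 0.784 to 1.96 that holds 1. With the granins Chga and Chgb left out of the rule, 37 and 34 cells remained and the ratio was 1.51 (0.920 to 2.47), and with at least 1000 genes required it was 1.5 (0.822 to 2.68). In each of these 3 settings the interval of the ratio held 1, so the larger share in the Casp8-mutant library was not separate from counting error there.

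The 9 defining markers of the label, namely Sct, Ghrl, Pyy, Nts, Cck, Chgb, Sst, Gcg and Ins2, are all among the rule genes, so their presence describes the selection and is no independent check. At least 3 of them had a UMI in 37 of 37 Mlkl-null members and in 41 of 46 Casp8-mutant members. The summed hormone share of gut hormone cells was lowest, median and highest at 2.48%, 10.3% and 35.3% in the Mlkl-null library and at 2.17%, 8.77% and 41.7% in the Casp8-mutant library. Stromal and myeloid cells reached at most 0.333% and 0.444%, and the source of their hormone UMIs was not tested.

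**Figure D1:**
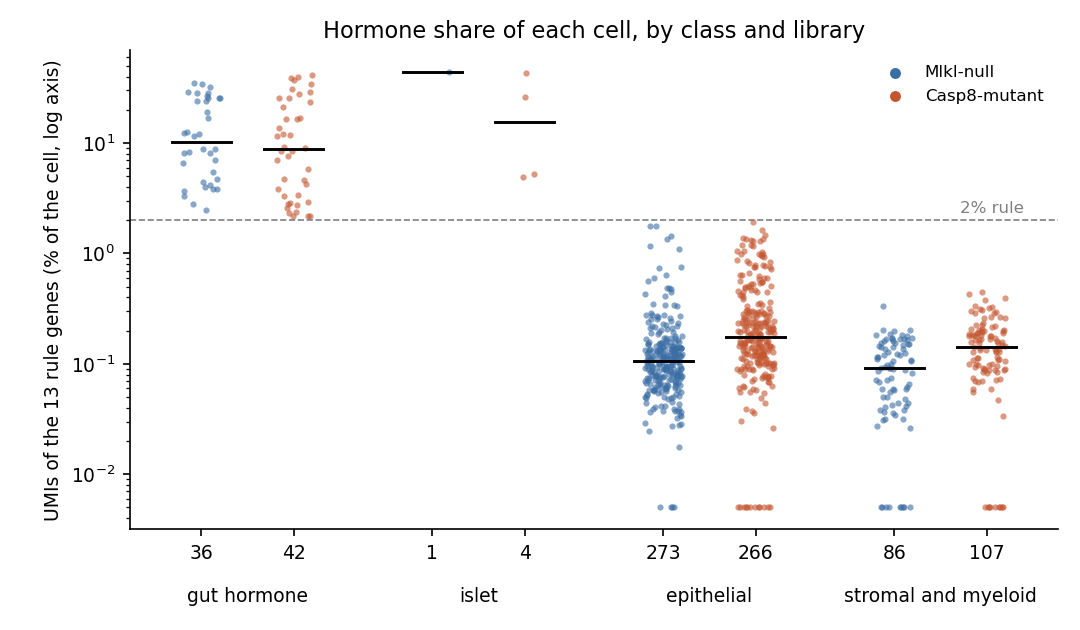
Hormone share of UMIs in single cells (log axis, percent) by class and library, each point 1 cell, each bar a median and the dashed line the 2% rule, with the numbers of cells below and cells at 0 drawn at the foot. Gut hormone cells spread from just above the line to 35.3% and 41.7%, while stromal and myeloid cells stay at or under 0.333% and 0.444%.

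Cells were not sparse at the 2% line in the Casp8-mutant library. Its members nearest the line stood at 2.17%, 2.18% and 2.20%, and the nearest cells outside stood at 1.93%, 1.83% and 1.79%. In the Mlkl-null library the members nearest the line stood at 2.48%, 2.81% and 3.33%, and those outside at 1.83%, 1.82% and 1.79%. Between 1% and 1.5% there were 6 Mlkl-null and 21 Casp8-mutant cells, and between 2% and 3% there were 2 and 10. The upper end was alike in number, with 13 and 14 members between 20% and 50%.

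Secretin was the most frequent leading hormone, the 1 of the 11 hormone genes with most UMIs in a cell. Sct led in 18 of 36 Mlkl-null gut hormone cells (50%, 32.9 to 67.1%) and in 28 of 42 Casp8-mutant cells (66.7%, 50.5 to 80.4%). Ghrelin (Ghrl), the appetite peptide of X cells, led in 6 and 6 cells, although 1 of the Casp8-mutant cells had Ghrl at only 0.102% of UMIs and passed the rule through Chgb and Chga. Pyy, a satiety peptide of distal L cells, led in 2 and 3, neurotensin (Nts) in 1 and 2, and Tac1, the substance P precursor of enterochromaffin cells, in 1 and 1. Cholecystokinin (Cck) led in 4 cells, Gip in 3 and Gcg in 1 of the Mlkl-null library and in 0 of the Casp8-mutant library, where somatostatin (Sst) led in 2 cells against 0. Of the Casp8-mutant cells, 2 Pyy-led and 1 Sst-led had little Sct, at 0.0708%, 0% and 0.0507% of UMIs. They had 12, 9 and 13 UMIs of prohormone processing genes and 25, 4 and 15 UMIs of islet genes such as Iapp and Ttr. Whether these cells came from gut or pancreas was not tested.

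Sct was near ubiquitous: 36 of 36 and 39 of 42 gut hormone cells had a UMI of it, and 33 and 35 held it. A cell is said to hold a hormone if at least 0.5% of its UMIs came from that gene. The Sct share per cell had a median of 3.19% and a maximum of 20.1% in the Mlkl-null library and a median of 1.57% and a maximum of 21.6% in the Casp8-mutant library. For comparison, 53.5% and 68.2% of stromal and myeloid cells had a Sct UMI at a median depth of 2821 and 1563 UMIs, yet 0 of them held it. Among epithelial comparison cells, 80.2% and 81.6% had a Sct UMI, and 4 of 273 and 34 of 266 held it while staying under the 2% rule.

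Other hormones were concentrated in few cells. Ghrl was held by 12 and 11 cells, and the single cell richest in it gave 50.3% and 61.8% of all its UMIs, with 30.8% and 38.7% of that cell's transcripts. Cck was held by 18 Mlkl-null and 10 Casp8-mutant cells, with 3548 and 636 UMIs. Pyy, held by 11 and 13 cells, had 1634 and 1549 UMIs, and Nts, held by 4 and 8, had 871 and 983. For the incretin Gip, 7 and 2 cells held it, with 925 and 142 UMIs. Gcg, the glucagon and glucagon-like peptide gene, was held by 4 and 1 cells, with 950 and 116 UMIs, of which 1 cell gave 58.2% and 72.4%. Sst showed the opposite split, with 2 UMIs and 0 holding cells in the Mlkl-null library and 617 UMIs in 4 holding cells of the Casp8-mutant library, 63.7% of them in 1 cell. The summed levels of Ghrl, Nts, Gcg, Sst and Casp8-mutant Gip thus described few cells, whereas the richest cell gave 33.6% of Mlkl-null Cck and 17.7% of Casp8-mutant Pyy.

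Granins and the tachykinin completed the rule. Chgb was held by 15 and 25 gut hormone cells, with 1083 and 785 UMIs. Chga had 147 and 150 UMIs. Tac1 had 42 and 114 UMIs and was held by 1 and 5 cells. Insulin transcripts outside islet cells were at background in number, with 2 and 7 UMIs of Ins1 and 9 and 13 of Ins2 in gut hormone cells, while 34.9% and 15.9% of stromal and myeloid cells had an Ins2 UMI.

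**Figure D2:**
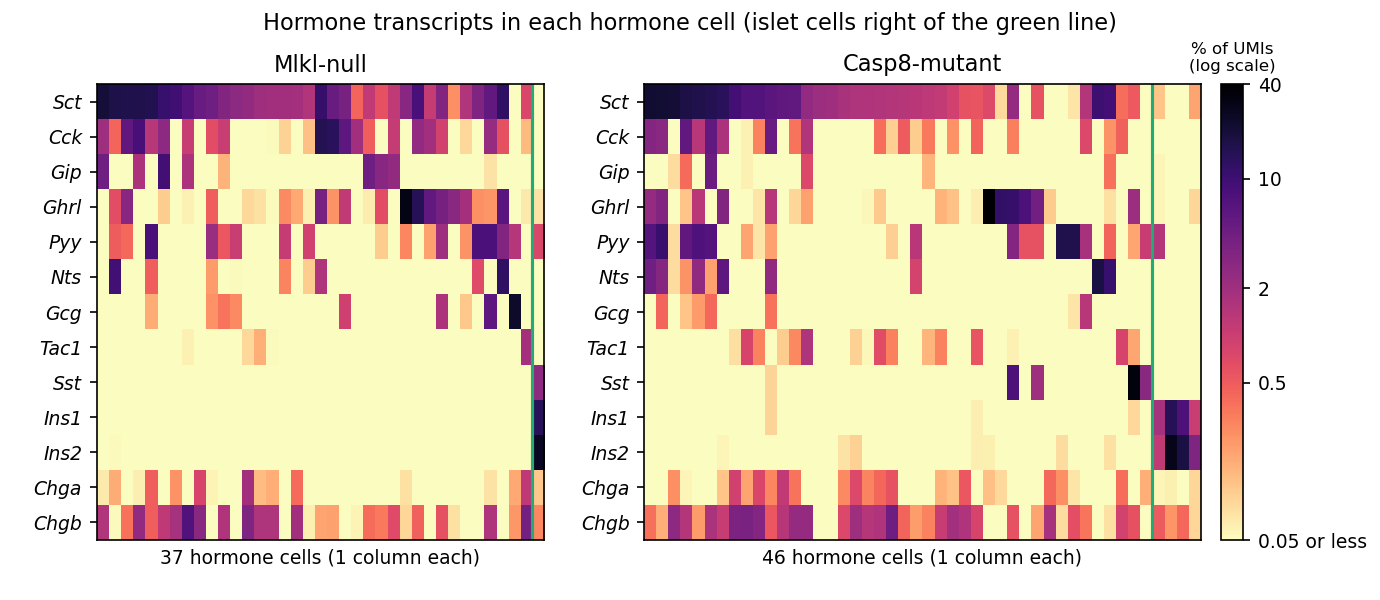
Percent of UMIs (log colour scale) from each of the 13 rule genes in each of the 83 hormone cells, by library, 1 column per cell ordered by leading hormone, with islet cells right of the green line. Sct runs through most gut hormone cells, whereas Ghrl, Pyy, Nts, Gip, Gcg and Sst mark small groups, and Ins1 and Ins2 stand out in the 1 and 4 islet cells.

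Most cells held more than 1 hormone. Of the Mlkl-null gut hormone cells, 8 held 1 hormone, 9 held 2, 14 held 3 and 5 held at least 4. Of the Casp8-mutant cells, 19 held 1, 9 held 2, 3 held 3 and 10 held at least 4, and the remaining 1, which passed the rule through granins, held 0. Cells with at least 2 hormones were 28 of 36 (77.8%, 60.8 to 89.9%) and 22 of 42 (52.4%, 36.4 to 68.0%), with intervals that overlap. After thinning each cell to 1000 UMIs the shares were 80.6% and 56.1%. The lower share of the Casp8-mutant library was thus also seen at equal depth. Depth was not the only limit, since the rule admitted some cells through granins. With Chga and Chgb left out of it, 37 of 37 Mlkl-null but 34 of 46 Casp8-mutant members remained. The share with at least 2 hormones was not computed for that set.

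Secretin was the common partner. Sct and Cck were held together in 17 Mlkl-null and 10 Casp8-mutant cells, Sct and Ghrl in 11 and 9, and Sct and Pyy in 10 and 9. All Gip-holding cells (7 and 2) and all Nts-holding cells (4 and 8) held Sct. Ghrl and Cck were joined in 7 and 5 cells, Pyy and Cck in 6 and 6, and Cck and Gip in 5 and 2. Ghrl and Pyy, hormones usually assigned to opposite ends of the gut, were held together in 2 and 6 cells.

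The promoters of secretin, glucagon and insulin 1 are printed because these genes mark the most common gut hormone, a rare one and the islet cells, and because the basic helix-loop-helix factor Neurod1 was found in both gut and islet cells. Each line gives the 250 bases before the RefSeq transcription start (GRCm38.p6) from 5′ to 3′ along the gene. Sct lies at chr7:141279134-141279383 on the minus strand, Gcg at chr2:62483654-62483903 on the minus strand and Ins1 at chr19:52264047-52264296 on the plus strand. Capitals mark CATCTG, an E-box that such factors can bind. They also mark TATAAA, a core promoter box. Both were searched on either strand, and a match on the opposite strand appears as its reverse complement.
Sct: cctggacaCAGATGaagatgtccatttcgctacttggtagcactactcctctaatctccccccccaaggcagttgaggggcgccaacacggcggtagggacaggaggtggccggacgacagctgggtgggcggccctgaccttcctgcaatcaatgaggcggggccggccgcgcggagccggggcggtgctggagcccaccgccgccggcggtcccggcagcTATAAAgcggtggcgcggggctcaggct
Gcg: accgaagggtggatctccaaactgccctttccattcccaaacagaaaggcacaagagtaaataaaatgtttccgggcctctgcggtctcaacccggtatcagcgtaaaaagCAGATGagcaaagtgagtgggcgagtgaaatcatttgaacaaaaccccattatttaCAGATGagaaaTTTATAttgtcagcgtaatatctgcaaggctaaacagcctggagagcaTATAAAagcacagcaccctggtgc
Ins1: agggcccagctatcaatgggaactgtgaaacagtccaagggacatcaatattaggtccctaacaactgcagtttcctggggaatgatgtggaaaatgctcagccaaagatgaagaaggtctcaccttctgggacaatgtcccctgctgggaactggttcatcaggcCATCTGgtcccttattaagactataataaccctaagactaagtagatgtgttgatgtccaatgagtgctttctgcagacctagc
The E-box letters ended 237 bases before the start of Sct, 134 and 78 bases before that of Gcg and 79 bases before that of Ins1. TATAAA ended 23 bases before the start of Sct and 19 bases before that of Gcg, with another on the opposite strand of Gcg that ended 67 bases before it. Of 32851 promoters of this length, 14.4% held CATCTG and 12.4% held TATAAA on either strand. In Cck, CATCTG ended 25 bases before the start, and the window of Tac1 held 1 CATCTG. Neither motif was found in the windows of Ghrl, Pyy, Chgb, Chga, Gip, Nts and Sst, so many hormone genes lacked the E-box letters. These matches describe letters and were not tested as binding sites.

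Beside the rule genes, gut hormone cells carried the machinery of peptide secretion. Summed prohormone processing genes were 31.9-fold (25.1 to 41.1) higher than in epithelial comparison cells of the Mlkl-null library and 30.1-fold (21.8 to 42.7) higher in the Casp8-mutant library. Secretory granule and exocytosis genes were 15.6-fold (13.1 to 18.6) and 25.0-fold (18.9 to 33.6) higher. Endocrine transcription factors were 6.57-fold (5.67 to 7.59) and 16.8-fold (13.3 to 21.3) higher. None of these genes was used by the rule, and the excess had the same direction in both libraries.

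Among granule proteins, secretogranin II (Scg2) had 103 UMIs in 23 of 36 Mlkl-null gut hormone cells against 5 UMIs in 273 epithelial cells, a 213-fold (96.9 to 735) higher level. In the Casp8-mutant library it had 38 UMIs in 16 of 42 cells against 0 in 266 epithelial cells. Scg3, which sorts granins to granules, had 23 and 15 UMIs, against 1 and 2 in epithelial cells. Scg5, the chaperone of Pcsk2, had 21 and 13 UMIs against 4 and 1.

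Of the processing enzymes, Pcsk1n, the inhibitor of Pcsk1, was 54.3-fold (27.4 to 132) and 92.3-fold (32.9 to 542) higher than in epithelial cells, and Cpe was 32.4-fold and 54.1-fold higher, with Cpe detected in 24 of 36 and 26 of 42 cells. Pcsk2 was confined to fewer cells, with 30 UMIs in 3 Mlkl-null cells and 19 UMIs in 4 Casp8-mutant cells. Of the 30, 28 were in the single Gcg-led cell, which also held all 28 UMIs of pancreatic polypeptide (Ppy) and 6 of islet amyloid polypeptide (Iapp). That cell had no insulin share that would make it an islet cell by the rule, and its Ppy, Pcsk2 and Ttr (50 UMIs) are genes known from the endocrine pancreas. It was still summed with the gut hormone cells, where it gave 37 of the 257 Mlkl-null processing UMIs, and whether it came from gut or pancreas was not tested.

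Of the transcription factors, Neurod1 was 42.9-fold and 77.4-fold higher than in epithelial cells and was detected in 25 of 36 and 21 of 42 gut hormone cells. Pax6, needed for several hormone lineages, was 42.7-fold (18.1 to 136) and 24.7-fold (2.55 to 1668) higher, with 24 UMIs in 16 Mlkl-null cells and 3 UMIs in 3 Casp8-mutant cells. Isl1, a LIM homeodomain factor, had 47 and 13 UMIs. Of these, 30 lay in 5 of the 6 Ghrl-led Mlkl-null cells and 6 in 4 of the 6 Ghrl-led Casp8-mutant cells. Most Isl1 UMIs were thus in Ghrl-led cells of the Mlkl-null library, while 7 of the 11 Casp8-mutant cells with Isl1 were led by another hormone. Transthyretin (Ttr), a carrier of thyroid hormone, had 100 of its 267 Mlkl-null UMIs and 53 of its 88 Casp8-mutant UMIs in Ghrl-led cells (51 without the cell of low Ghrl share).

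Among enterochromaffin genes, Tph1, the rate-limiting enzyme of serotonin synthesis in enterochromaffin cells, had 26 of its 33 Mlkl-null UMIs in 4 of 18 Sct-led cells and 72 of its 74 Casp8-mutant UMIs in 13 of 28 Sct-led cells. Sct-led cells gave 35.9% and 67.7% of all UMIs of gut hormone cells. The level of Tph1 was 50.6-fold and 121-fold above that of epithelial cells. Ddc, the next enzyme of the pathway, had 16 of its 24 and 3 of its 5 UMIs in Sct-led cells, and Gch1, which serves its cofactor, 17 of 37 and 22 of 32. Insl5, a hormone of colonic L cells, had 35 UMIs in 2 Mlkl-null cells, 1 Sct-led (18 UMIs) and 1 Pyy-led (17 UMIs), and 0 UMIs in epithelial cells and in the Casp8-mutant library. Gastrin (Gast) had 17 UMIs in 3 Cck-led Mlkl-null cells and 5 UMIs in 1 Pyy-led Casp8-mutant cell.

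Other genes that ranked highest against epithelium in the Mlkl-null library were the retinol carrier Rbp4 (228 and 44 UMIs, 52.3-fold and 20.1-fold higher), Ambp (134 and 38 UMIs, 98.4-fold and 48.0-fold), the prion protein gene Prnp (51 and 28 UMIs, 61.5-fold and 31.8-fold), Fam183b (54 and 17 UMIs), Hmgn3 (43 and 7 UMIs) and the calcium binder secretagogin, Scgn (28 and 8 UMIs). Gm44033, with 25 and 48 UMIs, lies inside Ghrl on the opposite strand (chr6:113718584-113719278, mm10), and whether its reads came from Ghrl was not tested. S100a9, a granulocyte gene, had 37 UMIs in 2 Mlkl-null cells. In the Casp8-mutant library it stood at 1530 counts per 1 M UMIs (CPM) in gut hormone cells against 1612 CPM in epithelial, 1912 CPM in stromal and myeloid and 1970 CPM in red-cell barcodes, so its level there did not mark hormone cells.

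**Figure D3:**
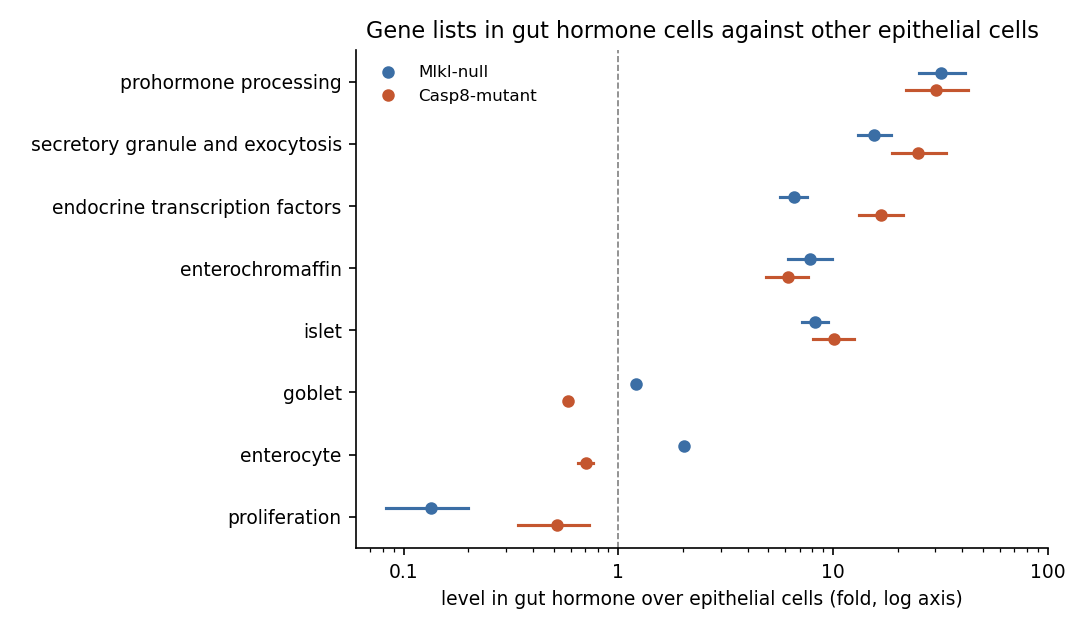
Ratio of gut hormone cells to epithelial comparison cells (log axis, fold) for summed gene lists in each library, points with 95% intervals for counting error. Prohormone processing (31.9 and 30.1), granule (15.6 and 25.0) and transcription factor lists (6.57 and 16.8) lie far to the right of 1 and proliferation (0.135 and 0.515) lies to the left.

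Cell cycle genes were low. The summed proliferation list of Mki67, Top2a and other genes was at 0.135 (0.0823 to 0.2) of the epithelial level in the Mlkl-null library and at 0.515 (0.339 to 0.732) in the Casp8-mutant library, with 22 and 30 UMIs in gut hormone cells. Gut epithelial identity genes such as Cdx1, Cdx2 and Vil1 were at 0.907 and 0.839 of the epithelial level. Receptors for nutrients and peptides were 2.39-fold and 1.14-fold of it. Enteric neuron genes had 12 and 8 UMIs in all, tuft cell genes 1 and 0, lymphoid genes 1 and 0 and fibroblast genes 6 and 0.

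Transcripts of other epithelial cells were present in some members. Goblet genes such as Muc2 and Tff3 made up at least 2% of UMIs in 6 and 6 gut hormone cells, with maxima of 10.7% and 19.0%. Enterocyte genes such as Fabp1 and Apoa1 reached 2% in 13 Mlkl-null and 3 Casp8-mutant cells. Against epithelial comparison cells, goblet genes were at 1.21-fold and 0.583-fold and enterocyte genes at 2.02-fold and 0.705-fold in the Mlkl-null and Casp8-mutant libraries, directions that differed between the libraries. Pancreatic acinar genes stayed at or under 0.387% and 0.396%.

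The endocrine machinery was higher in cells with at least 20% hormone UMIs than in cells with 2 to 5%. Levels of the cells between these bands are not given here, so no steady rise with hormone share is shown. In cells with 2 to 5% hormone UMIs (10 and 16 cells) prohormone processing genes were at 571 and 1211 CPM, and with at least 20% (12 and 12 cells) they were at 2529 and 2056 CPM. The upper Mlkl-null band includes the single Gcg-led cell, with 37 UMIs of processing genes. Granule genes went from 867 and 807 CPM to 3437 and 3208 CPM between the same bands. Summed goblet genes went the other way, from 35593 and 46979 CPM to 14159 and 11966 CPM, but few cells set the level of the lower band. There, goblet-rich cells had 993, 378 and 172 UMIs in the Mlkl-null library and 784, 467 and 178 UMIs in the Casp8-mutant library. All other cells of that band had at most 47 and 58 goblet UMIs. Cells just outside the rule, with 1 to 2% (11 and 26 cells), had processing genes at 325 and 111 CPM and goblet genes at 37238 and 140982 CPM. Since hormone transcripts take up part of each cell's total, CPM of all other genes is lowered in the hormone-rich cells.

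The 5 islet cells were defined by insulin and are described one by one. The Mlkl-null islet cell had 8299 UMIs and 2354 genes, with 13.9% of UMIs from Ins1 and 26.0% from Ins2. It also held somatostatin (222 UMIs, 2.68%) and Pyy (65 UMIs, 0.783%), and had 188 UMIs of Iapp, 47 of Ppy and 34 of Pcsk2. The Casp8-mutant islet cells had 4976, 2436, 1773 and 1133 UMIs, of which 43.1%, 25.5%, 2.99% and 4.50% came from insulin genes. The richest of them gave 75.4% of the 952 Ins1 UMIs and 74.4% of the 1916 Ins2 UMIs.

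Together the Casp8-mutant islet cells had 112 UMIs of Iapp, which is stored with insulin in beta cells, 43 of Pcsk2 and 7 of Neurod1. Sst, Gcg, Nts and Cck were at 0 in them, over 10318 UMIs. Mafa, a factor of mature beta cells, and the alpha cell factors Irx1 and Irx2 were at 0 in the islet cells of both libraries. Acinar genes had 7 and 0 UMIs in islet cells. The share of islet cells was 0.0695% and 0.457%, a ratio of 6.58 whose interval of 0.651 to 324 holds 1.

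The genotype comparison asked what hormone cells with inactive caspase-8 express when Mlkl is absent from both. A gene with at least 20 UMIs over both libraries was called higher or lower if its ratio, Casp8-mutant divided by Mlkl-null, was at least 1.5-fold from 1 and its interval left out 1. Among 1816 measured genes in gut hormone cells, 218 were higher (12%) and 236 lower (13%), with a median log2 ratio of -0.13. In epithelial comparison cells, where 10652 genes were measured, 1263 were higher (11.9%) and 2894 lower (27.2%) at a median log2 ratio of -0.32. Under median-of-ratios scaling the median in gut hormone cells moved to 0.01, and 276 genes were higher and 176 lower, so the balance of higher against lower depended on scaling.

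Interferon-stimulated genes were higher as a group. Every one of the 38 genes of the list had a higher CPM in the Casp8-mutant library, 38 having a UMI there and 20 in the Mlkl-null library. The 20-UMI minimum left 10 measured genes, all higher, but only 1 of them reached it in the Mlkl-null library alone, so that count is no support. The sum over all 38 went from 144 UMIs (950 CPM) in Mlkl-null gut hormone cells to 776 UMIs (9275 CPM) in Casp8-mutant cells, a ratio of 9.74 (8.16 to 11.7). The level in epithelial comparison cells was 479 CPM and 9742 CPM, so that gut hormone cells were at 1.99-fold (1.65 to 2.37) of epithelium in the Mlkl-null library and at 0.953-fold (0.883 to 1.03) in the Casp8-mutant library. Red-cell barcodes, taken as a reference for free transcripts, differed in the same direction, from 560 to 3259 CPM, or from 2066 to 9958 CPM once globin UMIs were taken out of the total. What part of the hormone-cell level came from free transcripts was not tested.

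Single cells showed the same separation. The interferon-stimulated share was lowest, median and highest at 0.0248%, 0.0909% and 0.283% in the 36 Mlkl-null gut hormone cells and at 0.145%, 0.895% and 3.20% in the 42 Casp8-mutant cells. Of the latter, 38 exceeded the highest Mlkl-null cell. Among cells grouped by leading hormone, the Casp8-mutant level was 10247 CPM in Sct-led, 6563 CPM in Ghrl-led (7055 CPM without the cell of low Ghrl share), 8208 CPM in Pyy-led, 5587 CPM in Nts-led and 6997 CPM in Sst-led cells, against 1103 CPM in Sct-led, 743 CPM in Ghrl-led and 660 CPM in Pyy-led cells of the Mlkl-null library.

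Islet cells had less. The 4 Casp8-mutant islet cells had interferon-stimulated shares of 0.113%, 0.141%, 0.164% and 0.177%, summing to 15 UMIs (1454 CPM, 814 to 2398), with 1 UMI of Isg15. Only 3 of 42 Casp8-mutant gut hormone cells and 1 of 266 epithelial cells were at or below the highest islet cell, while 5 of 36 Mlkl-null gut hormone cells were above it. The Mlkl-null islet cell had 0.0482% (4 UMIs). MHC class I presentation genes had 9 UMIs in the 4 Casp8-mutant islet cells, at 0.0402 to 0.169% per cell. The islet level of interferon-stimulated transcripts thus lay below the 3259 CPM of the red-cell barcodes of the same library.

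**Figure D4:**
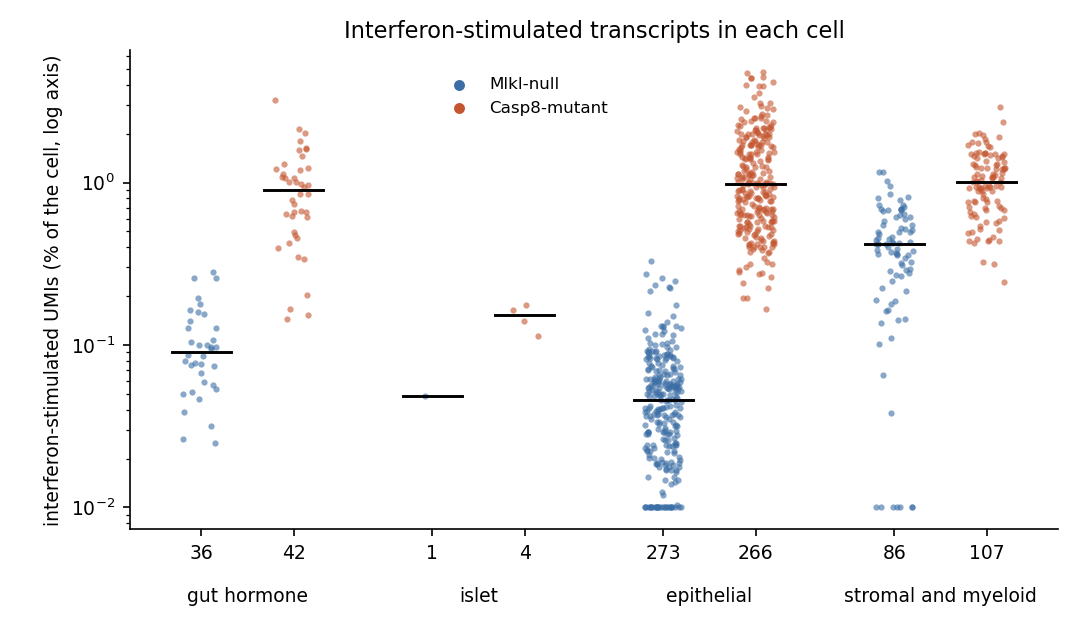
Percent of UMIs from interferon-stimulated genes in single cells by class and library (log axis), each point 1 cell and each bar a median, with cells at 0 drawn at the foot. Casp8-mutant gut hormone cells (median 0.895%) lie above Mlkl-null ones (median 0.0909%), and the 4 Casp8-mutant islet cells lie at 0.113 to 0.177%.

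Isg15, a ubiquitin-like modifier, led the group, with 0 UMIs in Mlkl-null gut hormone cells and 105 UMIs in 26 of 42 Casp8-mutant cells (1255 CPM), at least 63.4-fold higher when 3 counts over the group stand for the 0. Its Casp8-mutant level was 1903 CPM in epithelial, 973 CPM in stromal and myeloid and 1177 CPM in red-cell barcodes. With globin UMIs taken out of the totals it was 1268 CPM in gut hormone cells and 3596 CPM in red-cell barcodes. Ifitm3, a membrane protein that blocks virus entry, went from 6 to 65 UMIs, a ratio of 18.3 (8.55 to 55.5). Bst2, which tethers budding virus, went from 3 to 56 UMIs (ratio 29.3, 11.0 to 169), Irf7, the factor that amplifies interferon induction, from 6 to 59 (16.6) and Ifit1 from 6 to 51 (14.4). Lgals3bp was already present, with 86 UMIs against 135 (ratio 2.84). Zbp1, the sensor that can drive Ripk3, had 0 and 8 UMIs. Ly6a, a surface antigen outside the list, went from 2 to 48 (35.2, 11.4 to 369).

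The Isg15 promoter is shown since this gene had the highest bound of the list. It lies at chr4:156200819-156201068 on the minus strand (GRCm38.p6, RefSeq), printed as the 250 bases before the start, 5′ to 3′, with the core of the interferon-stimulated response element in capitals where 3 overlapping matches join. The core was searched as the letters GAAA repeated after a gap of 2 bases of any kind.
Isg15: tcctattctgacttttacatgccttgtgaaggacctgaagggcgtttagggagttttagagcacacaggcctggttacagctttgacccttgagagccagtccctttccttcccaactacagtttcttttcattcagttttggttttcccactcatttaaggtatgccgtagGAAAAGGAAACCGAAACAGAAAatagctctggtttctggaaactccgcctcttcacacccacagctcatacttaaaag
The 3 matches began 78, 72 and 66 bases before the start. Of 32851 promoters of the same length, 2.98% held this motif on either strand. The window of Ifitm3, also higher, held 0 matches, and that of the hormone gene Sst held 1.

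Antigen presentation genes were higher too, with the same limit on counts: only 4 of the 10 measured genes reached 20 UMIs in the Mlkl-null library alone. MHC class I presentation had 10 measured genes, 6 of them higher (60%, beside 12% of all measured genes) and 0 lower (median log2 ratio 1.58). The list had a summed ratio of 3.23 (2.76 to 3.81). B2m, which pairs with every class I heavy chain, went from 26 to 128 UMIs (ratio 8.79, 5.82 to 14.2), Psmb8, an immunoproteasome subunit, from 4 to 32 (13.1) and H2-D1 from 53 to 86 (2.93). H2-K1, with 67 and 50 UMIs, had a ratio of 1.36. Per cell the median share was 0.138% and 0.460%, and 18 of 42 Casp8-mutant cells exceeded the highest Mlkl-null cell, at 0.537%.

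Of 5 measured antimicrobial genes 4 were higher and 1, Defa24, lower (137 to 49 UMIs), beside 12% higher and 13% lower of all measured genes. Only 3 of the 5 reached 20 UMIs in the Mlkl-null library alone. Of the 4, S100a8 and S100a9 are granulocyte genes as well, at 1805 and 1530 CPM in Casp8-mutant gut hormone cells and 1899 and 1970 CPM in red-cell barcodes. Reg3b and Reg3g passed the 20-UMI minimum only with the Casp8-mutant UMIs, so their calls are no support. Reg3b, a bactericidal lectin, went from 2 UMIs to 184 UMIs in 32 of 42 cells (ratio 134, 45.5 to 1387), with 2199 CPM in gut hormone, 6635 CPM in epithelial, 620 CPM in stromal and myeloid and 674 CPM in red-cell barcodes of the Casp8-mutant library. Without globin UMIs the red-cell level was 2060 CPM and the gut hormone level 2223 CPM. Reg3g went from 0 to 54 UMIs (at least 32.6-fold higher), at 652 CPM in gut hormone cells and 795 CPM in red-cell barcodes without globin. G0s2, a lipase inhibitor outside the list, went from 0 to 20 UMIs (at least 12.1-fold higher), at 242 and 651 CPM on that scale. The chemokine gene Cxcl2 went from 1 to 44 UMIs (ratio 53.8, 13.6 to 3220), at 526 CPM, against 897 CPM in stromal and myeloid and 485 CPM in red-cell barcodes (1482 CPM without globin). Granulocyte genes, with S100a8 and S100a9, had a median share of 0% in Mlkl-null and 0.363% in Casp8-mutant gut hormone cells and were seen in all 42 of the latter, and erythroid genes went from a median of 0.249% to 1.08%. Their part in these values was not tested.

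Enterocyte genes were lower. Of 8 measured members 6 were lower (75%, beside 13% of all measured genes) and 0 higher. All 8 reached 20 UMIs in the Mlkl-null library alone but only 5 in the Casp8-mutant library alone, so that count leans on the library where they are high. Of all 9 genes of the list, 8 had a higher CPM in the Mlkl-null library and 1 in the Casp8-mutant library. The sum over the list went from 4278 to 622 UMIs, a ratio of 0.264 (0.242 to 0.287). The same sum had a ratio of 0.756 (0.738 to 0.774) in epithelial comparison cells. There 5 of 9 genes were lower and 2 higher, beside 27.2% lower and 11.9% higher of all genes measured in that class. The ratio of the sum was 0.417 in stromal and myeloid cells and 0.435 in red-cell barcodes, and the part of free transcripts was not tested. Fabp1, the liver-type fatty acid binding protein, went from 1047 to 12 UMIs (ratio 0.0216), Fabp2 from 478 to 23 (0.0890), the retinol binder Rbp2 from 583 to 41 (0.129), Apoc3 from 320 to 34 (0.195) and Apoc2 from 247 to 18 (0.135). Lactase (Lct) went from 39 to 0 UMIs, at least 7.17-fold lower, while the genes of fatty acid oxidation Acaa2 (53 to 1 UMIs, 0.0508, 0.00085 to 0.199) and Hadh (51 to 2 UMIs, 0.0880, 0.00838 to 0.270) were also lower. Fabp1 stood at 6906 CPM in gut hormone, 3285 CPM in epithelial and 1735 CPM in stromal and myeloid cells of the Mlkl-null library. Enterocyte genes stood at 42039 CPM in Mlkl-null cells with 2 to 5% hormone UMIs and at 11565 CPM in those with at least 20%, and the Casp8-mutant levels in the same bands were 9834 and 4976 CPM.

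**Figure D5:**
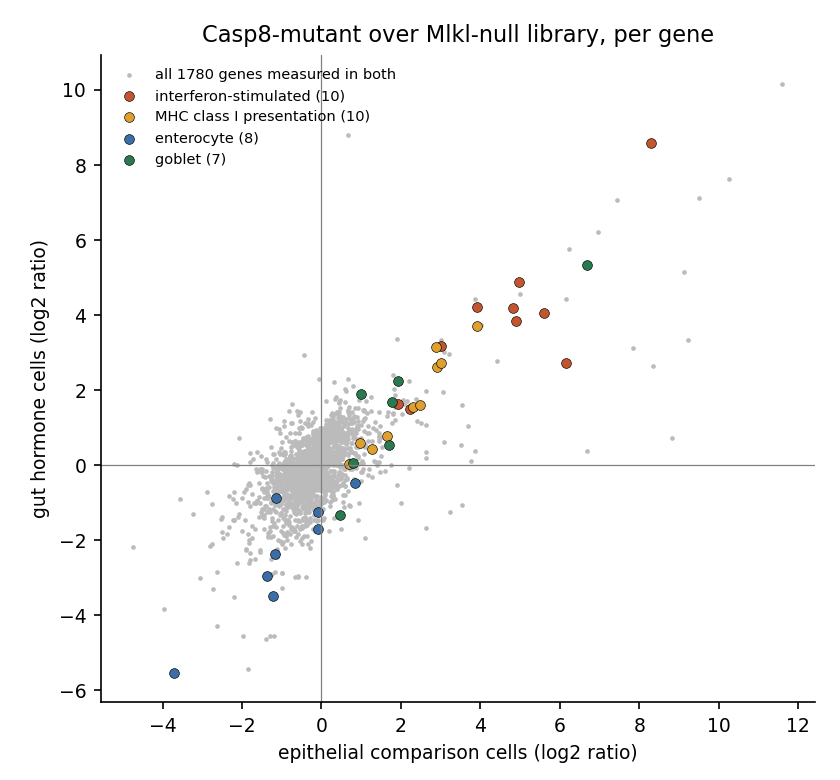
Log2 ratio of Casp8-mutant to Mlkl-null levels in epithelial comparison cells (x) and in gut hormone cells (y), 1 point for each of the 1780 genes measured in both, with 4 gene lists coloured. The coloured interferon-stimulated genes are the 10 of 38 that passed the 20-UMI minimum, 9 of them only with the Casp8-mutant UMIs, and they lie above 0 on both axes.

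The secretory programme itself differed less. The summed prohormone processing genes had a ratio of 1.01 (0.816 to 1.24) and granule genes of 0.990 (0.814 to 1.20). These intervals hold counting error only, and with 1 library per genotype they set no limit on a difference between genotypes. Both ratios were lower with the rule at 1%, as given in the last section. Of 6 measured processing genes only Pam was called, lower from 87 to 25 UMIs (ratio 0.528), which is 16.7% beside 13% of all measured genes. Of 7 granule genes Ptprn (8 to 19 UMIs, 4.16) and Syt7 (10 to 19 UMIs, 3.37) were higher, which is 28.6% beside 12%. Neither Ptprn nor Syt7 reached the UMI minimum in either library alone. Endocrine transcription factors summed to 1.14 (0.945 to 1.38). Of 8 measured, 1 was higher (12.5%) and 2 lower (25%), beside 12% and 13% of all measured genes, so the share higher was near that of all genes. Neurod1 was higher from 43 to 47 UMIs (1.98, 1.28 to 3.07), while Pax6 (24 to 3 UMIs, 0.259, 0.0437 to 0.746) and Isl1 (47 to 13 UMIs, 0.515) were lower. Pax6 and Isl1 reached the UMI minimum in the Mlkl-null library alone but not in the Casp8-mutant library alone. The count of lower genes thus leans on the library where they are high and is no support. The intervals of Pax6 and Isl1 held 1 with the rule at 5%, and again without the 6 and 6 cells with at least 2% goblet UMIs, a setting chosen after seeing the data, and that of Neurod1 held 1 with the rule at 1%.

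Hormones and other genes outside the rule often turned on few cells. Of 4 measured enterochromaffin genes Tph1 alone was called, which is 25% beside the 12% higher among all measured genes. It was higher from 33 to 74 UMIs (4.03, 2.66 to 6.32), in 6 and 15 cells, and the list's sum had a ratio of 1.81 (1.4 to 2.34). Gch1 had a ratio of 1.57 (0.945 to 2.59), Slc18a1 of 0.746 (0.311 to 1.56) and Ddc of 0.407 (0.112 to 1.01). Iapp was higher from 13 to 57 UMIs (7.72), with 20 in 1 Pyy-led and 12 in 1 Sst-led Casp8-mutant cell, and Cartpt, an appetite-related peptide, from 2 to 37 UMIs (27.2, 8.65 to 287), with 27 in 1 Sct-led cell. Insl5 was at least 6.44-fold lower, from 35 UMIs in 2 cells to 0, and Ppy lower from 28 UMIs in 1 cell to 1 (0.0954, 0.00158 to 0.391). Mptx1 was called lower from 134 to 9 UMIs (ratio 0.128), with 132 in 1 Ghrl-led Mlkl-null cell. Its ratio was 2.13 with the rule at 5% and 1.69 without goblet-rich cells. Among other lists, goblet genes were mixed, with 4 of 7 higher and 1 lower, beside 12% and 13% of all measured genes. Of the 7, 5 reached 20 UMIs in the Mlkl-null library alone and 6 in the Casp8-mutant library alone, so the count of higher genes is no support. Zg16 was among the higher, from 2 to 55 UMIs (40.2, 13.2 to 422), and passed the minimum only with the Casp8-mutant UMIs. Of 14 endoplasmic reticulum stress genes, 2 were lower (14.3%, near the 13% of all measured genes) and 0 higher (sum 0.769, 0.662 to 0.889).

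Casp8, Ripk3 and Mlkl were close to the limit of detection, while the 17 cell death genes together had 85 and 61 UMIs, at 0.839 (0.661 to 1.04) and 0.726 (0.546 to 0.934) of the epithelial level. Casp8 had 3 UMIs in gut hormone cells of each library (19.8 and 35.9 CPM), against 46.0 and 137 CPM in epithelial cells. Ripk3 had 1 and 0 UMIs, against 29.7 and 77.9 CPM in epithelial cells, and Mlkl had 0 and 0. Casp8 in gut hormone cells was 0.50 (0.09 to 1.30) and 0.31 (0.05 to 0.79) of the epithelial level, and Ripk3 in the Casp8-mutant library was listed at 0, so that its interval reached up to 0.58 of it. The allele is a substitution, and its transcript count checks no label.

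Calls were compared gene by gene over the 1780 genes measured in both classes, whose ratios share no cells. Of these, 116 were higher in both gut hormone and epithelial cells and 144 lower in both. Another 8 were higher in gut hormone and lower in epithelial cells, among them Ccnd2, Edn1 and Irf2bp2, and 5 were lower in gut hormone and higher in epithelial cells, among them Klf2 and Rn7sk. In gut hormone cells alone 89 genes were higher and 81 lower, and in epithelial cells alone 121 were higher and 399 lower. Neither call was made in both classes for 817 genes. The overlap that these shares alone would give was not computed, so the counts are a description. The gene names were chosen after their values were seen.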

How the data were processed

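The deposited files hold raw counts, whole-number UMI counts per gene and barcode with no normalization by the authors, as checked on the values. Per the submitters' processing notes, Cell Ranger 3.0.2, Seurat 3.0 and mm10 were used. How barcodes were filtered, and which tool did what, is not stated. Samples were grouped by the genotype in the labels, with 1 library per genotype. Of 52636 gene IDs, 52403 matched a symbol in the supplied gene name table, and 375 of 376 list symbols matched.

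The hormone cells, gene lists and comparisons were chosen with earlier results of these data known. UMIs were summed per library and class and divided by the class total (CPM). CPM from 3′ UMI counts was not scaled by gene length. Epithelial comparison cells were non-members with at least 500 genes, at least 0.5% of UMIs from Epcam, Krt8, Krt18, Krt19, Cldn3, Cldn7 and Cdh1 and under 20% erythroid UMIs. Stromal and myeloid cells had at least 0.5% from Col1a1, Col1a2, Col3a1, Lyz2, C1qa, C1qb, C1qc, Csf1r and Tyrobp and under 0.2% epithelial UMIs. Red-cell barcodes were added after seeing the data. Levels have exact Poisson, shares Clopper-Pearson and ratios conditional exact intervals at 95%, with 0.5 UMI added to each sum of a ratio and 3 counts over the group as the floor for a 0. PCR duplicates are removed by UMIs, and intervals cover counting error only. Thinning drew 1000 UMIs per cell with seed 0, leaving out shallower cells. Ratios and intervals were tested on simulated counts.

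Named genes were the 13 rule genes, the 20 genes with the highest lower limit against epithelium in the Mlkl-null library (at least 20 UMIs), the 10 higher and 10 lower genes of the genotype ratio with the bound farthest from 1, the 2 to 4 members of each list with most UMIs, and preset regulators. The genotype ranking left out sex-linked, predicted, haemoglobin, ribosomal and mitochondrial genes. Ins1, Sct, Gcg and Isg15 promoters come from RefSeq. Alternatives covered the rule share, gene minimum, totals, scaling, UMI minimum and added UMI. Doublets were called with Scrublet in scanpy 1.11.5; the other tools were Python 3.11.15, numpy 2.4.6, scipy 1.17.1, pandas 2.3.3 and matplotlib 3.10.9.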

Additional observations from a re-analysis of the deposited data

Results flagged for a closer look

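In all, 2 barcodes with hormone transcripts fell under the minimum of 500 genes and entered no comparison. The Mlkl-null barcode had 386 genes and 1407 UMIs, of which 729 (51.8%) were hormone UMIs, with Ins2 leading. The Casp8-mutant barcode had 480 genes and 1064 UMIs, of which 26 (2.44%) were hormone UMIs, with Sct leading. Each was picked by a hormone share of at least 2%. That it lay above the stromal and myeloid cells of its library, at most 0.333% and 0.444%, was therefore fixed in advance and is no support. Counting the Mlkl-null barcode would make its islet cells 2 in number.

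Rn7sk, the 7SK small nuclear RNA that restrains transcription elongation, had a ratio of Casp8-mutant over Mlkl-null of 0.311 (0.236 to 0.401) in gut hormone cells, from 398 to 68 UMIs, and a ratio in epithelial comparison cells with an interval of 5.59 to 6.94. It was 1 of 13 genes called in opposite directions in the 2 classes, and the difference between the classes was not tested.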

How the results depend on the processing

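No paired analysis was possible because each genotype had 1 library and the labels give no replicate numbers, and leaving out a replicate was not possible for the same reason. Among values that answer a comparison, 165 kept their direction and stayed within the limits set for them, and 24 moved. Of single named genes 400 kept theirs, 40 moved and 2 reversed. Part of the kept values could not move. The UMI minimum and the fold rule do not enter a ratio, no member was a called doublet, and the islet cut does not change the number of members. The counts of kept values are therefore no measure of robustness. The reversals were both of Mptx1, with a ratio of 2.13 with the rule at 5% and of 1.69 without cells with at least 2% goblet UMIs. The share of hormone cells in the Casp8-mutant library was 8.23% with the rule at 1% and 3.31% at 5%. Against hormone and epithelial cells, a denominator added after seeing the data, the shares were 11.9% and 14.7% (ratio 1.24). With at least 200 genes the Mlkl-null islet cells were 2. With a hormone held at 0.2%, 69.0% of Casp8-mutant gut hormone cells held at least 2. With a 1% epithelial share the excess over epithelium was 65.6 and 52.8 for prohormone processing and 12.7 and 15.0 for granule genes, and with totals that left out rule genes it was 7.64 for Mlkl-null transcription factors. Genes higher numbered 115 with the rule at 5% and 130 with at least 50 UMIs, and genes lower 134 and 132, with 482 at 1%. The enterocyte ratio was 0.291 under median-of-ratios scaling, 0.303 at 1% and 0.236 without goblet-rich cells, also added after seeing the data. With the rule at 1%, which admits 48 and 72 members, the ratios were 0.748 for processing, 0.724 for granule, 0.778 for transcription factor and 1.29 for enterochromaffin genes. The causes were not tested. The Casp8-mutant cells had about 2-fold lower depth, which limits what can be seen of genes with few UMIs, and in many hormones 1 cell set the level.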
